A study of Homo sapiens with 5 samples.

Results

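RNA retrieved with the Even pool of oligonucleotides against the lncRNA SNHG5 gave 8626 peaks, and 8253 of these, 95.7%, overlapped no peak of the Odd pool by 1 bp or more. These 8253 Even-only peaks are described here as a whole list, beside the 373 Even peaks that an Odd peak overlapped and the Odd list itself. The members were chosen by the positions of the peaks alone, as called in each list. The share depends on the lists. The Odd list is much shorter and held only peaks with a −log10 p of at least 26.7 and a pileup of at least 20. The Even list went down to a −log10 p of 3.02, apart from 2 members without tags, at 0.46 and 0.36. Among the best Even peaks by p, taken to the length of the Odd list, 785 (86.7%, 95% Wilson interval 84.4 to 88.8) overlapped no Odd peak, and these are called the best members. The study's methods extrapolated the number of reproducible Even peaks from the Odd pool and give that same length as the optimal number for both pools. All libraries were made from HCT-116, a colorectal carcinoma cell line, after cross-linking in 1% glutaraldehyde. The samples comprised 2 ODD libraries, 1 EVEN library and 2 libraries that the labels call INPUT, whereas the study's methods describe the pooled reference as a luciferase oligonucleotide pool. The Even list was called from the single EVEN library against the pooled control, so no peak has a replicate value and no test between conditions could be made. Since both lists went into the choice, pileup, fold and width of the members are given as descriptions. The peaks carry no strand, and the lists hold no expression level with which to check the cell line.

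RIA-seq cross-links RNAs in cells, captures 1 of them with biotinylated antisense oligonucleotides and sequences what comes down with it. Oligonucleotides are split into pools that tile different segments of the bait, so that an RNA held by the bait can be retrieved with either pool, whereas an RNA that pairs with an oligonucleotide itself is retrieved with that pool. SNHG5 is a spliced, mostly cytoplasmic small nucleolar RNA host gene, and STAU1, a protein that directs decay of mRNAs with double-stranded structures in their 3′ UTRs, was studied beside it.

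A short stretch of SNHG5 recurred around Even-only summits. Only sequences of SNHG5 were searched. Each 8-mer of the transcript SNHG5-202, which has 6 exons, was searched for on both strands of a window reaching 250 bp to either side of each summit, and the 8-mer with the largest excess over windows 5 kb to either side was GTGGTAGG, at positions 49 to 56 from the 5′ end. It runs over the boundary of the first exons, with 7 bases from exon 1 and 1 from exon 2. The study's drawing of its oligonucleotides along SNHG5 marks this stretch for the Even pool. The drawing and the oligonucleotide list were read as pictures, so their letters were used in no computation. The stretch of SNHG5 from position 38 to 67 is shown first, in DNA letters with the 8-mer in capitals. On hg19 it is read from the minus strand of chr6:86388412-86388429 and chr6:86387895-86387906.
SNHG5, exons 1 and 2: cgtctgggcggGTGGTAGGaacaatggcgc
The other sequences are the 8 longest matches to SNHG5 among the 60 Even-only peaks with the smallest p. They are shown because they let the matching letters be read directly, and they were chosen after their values had been seen. Each is 30 bases of the GRCh37 strand that has the letters of SNHG5, 5′ to 3′, with the matching run in capitals.
HEATR9 and TAF15, intron, chr17:34190569-34190598, plus strand: ttaagaGGCGGGTGGTAGGAACAtataata
ABL2, intron, chr1:179133603-179133632, minus strand: tgttttTCTGAAGATGCAAAGATcttggaa
ENSG00000239462, intron, chr3:98627571-98627600, plus strand: ccatctcAGATGCAAAGATACACataggct
ALG6, intron, chr1:63891540-63891569, plus strand: tgaaaacGTGGTAGGAACAATGGattgaag
YEATS2, coding sequence, chr3:183524764-183524793, plus strand: ctctccgAGCCAGTGAAGATAAacatcaag
KDM4C, coding sequence, chr9:6805711-6805740, plus strand: agtacaaCATCCAGAAAAAAGCgatgactg
GBA2, intron, chr9:35747253-35747282, minus strand: gttgcatGTGGTAGGAACAATGagatcaag
EHBP1L1, intron, chr11:65355802-65355831, plus strand: gtggctcaGGGTGGTAGGAACAttgaggct
In 7 of the 8 the strand shown is the one from which the only annotated gene is transcribed, and in the other, HEATR9 and TAF15 lie on opposite strands. The matches at HEATR9 and TAF15, ALG6, GBA2 and EHBP1L1 all hold the leading 8-mer. Those at ABL2 and ENSG00000239462 share a run from SNHG5 positions 99 to 110, those at YEATS2 and KDM4C lie at positions 215 to 229 and 395 to 409, and 6 of the 8 cross a boundary between SNHG5 exons.

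Most Even-only peaks rested on very few reads. MACS kept 1965614 of 55933565 Even tags after limiting duplicates to 2 per position, and scaled them by 2.03 to the depth of the control, so that every deposited pileup equals a whole number of tags times this factor, rounded down. The median Even-only pileup was 10, which is 5 tags. A single count of 5 tags has an exact 95% Poisson interval of 1.62 to 11.7 tags, for counting error only. Exactly 2 tags underlay 1611 members and 3 tags another 1541, together 38.2% of the list (95% Wilson interval 37.1 to 39.2). Among the Even peaks that an Odd peak overlapped, 11 of 373 had 2 or 3 tags (2.95%, 1.65 to 5.20), and their median pileup was 36. At the other end, 2467 members (29.9%) had 10 tags or more and 620 (7.51%) had 50 or more.

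Fold enrichment, the ratio of pileup to the local control background, did not rise steadily with the number of tags. Its median among Even-only peaks was 14.2 at 3 tags and 5.78 at 10 to 19 tags. Peaks were called with a limit of 0.001 on p, which a site of few tags could pass only where the local background was low. Fold by number of tags is therefore a description of the called list. The median fold was 14.2 in the overlapped Even peaks and 9.47 in all Even-only peaks. MACS uses a genome-wide background of 0.428 where the control is empty nearby, and 9.47 is the value of 2 tags, multiplied by 2.03, over it. Of the 2-tag members, 1310 of 1611 (81.3%) had that value within 0.011. In all, 36.9% of members had a fold equal, with the same tolerance, to their scaled tags over the genome-wide background, against 13.9% of the overlapped Even peaks. Among the 785 best members the median fold was 28.5 and the median pileup 119.

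**Figure D1:**
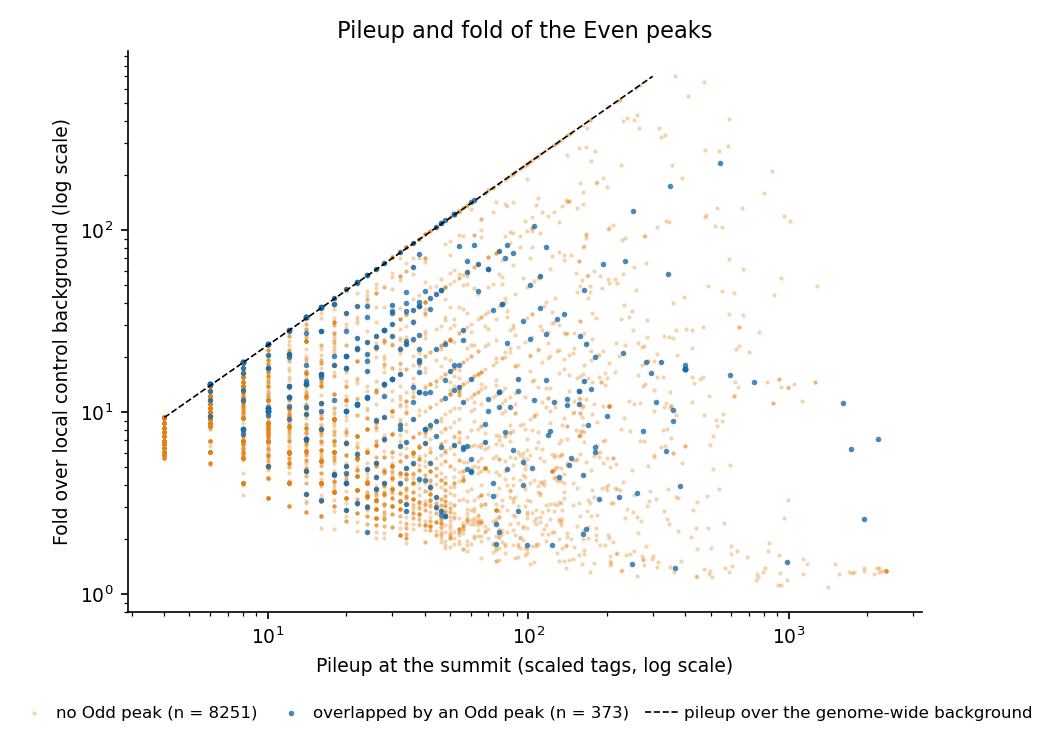
Pileup at the summit (x, scaled tags, log scale) and fold over the local control background (y, log scale) for each Even peak, with Even-only peaks in orange and Even peaks overlapped by an Odd peak in blue; the 2 members with a pileup of 0 are not drawn. The columns of points at the left are whole numbers of tags, starting at a pileup of 4 for 2 tags, and the dashed line is pileup divided by the genome-wide background of 0.428. The 2-tag column reaches 9.47, just above the line because pileups were rounded down.

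Width showed the same tail. MACS extended each tag to 290 bp, and 4004 members (48.5%, 47.4 to 49.6) were exactly that wide, against 26 of 373 overlapped Even peaks (6.97%, 4.80 to 10.0). The median width was 293 bp in the Even-only list, 516 bp in the overlapped Even peaks and 694 bp among the 785 best members. The widest member, of 5077 bp, lay on an unplaced contig.

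Introns held the largest share of the list. The study's methods state that intronic peaks were dropped before its own analysis as probable errors of the peak shift, but the deposited lists hold them and they are kept here. At the summit, 4251 Even-only peaks lay in an intron (51.5%, 50.4 to 52.6), 1726 in coding sequence (20.9%, 20.05 to 21.80), 796 between genes (9.64%), 739 in a 3′ UTR (8.95%), 411 in a noncoding exon (4.98%) and 120 in a 5′ UTR (1.45%). A further 210 lay on haplotypes, unplaced contigs or the mitochondrial genome, for which no annotation was used here. The Odd list had a smaller share in introns (41.3%, 38.2 to 44.6) and larger ones in coding sequence (31.9%, 28.98 to 35.04) and 3′ UTRs (13.9%, 11.8 to 16.3), and the best members had 42.8%, 29.3% and 9.94%. Among the 2585 members in exons of mRNAs, 66.8% were in coding sequence, 28.6% in 3′ UTRs and 4.64% in 5′ UTRs. The Odd list had 66.7%, 29.1% and 4.16%, and each of these lay within the interval of the Even-only share.

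The region changed with the number of tags. Sites of few tags could pass the limit on p only where the local background was low, and the part of this limit in the shares was not tested. Of the 2-tag members, 72.3% lay in introns, 20.6% between genes and 2.11% in coding sequence. At 4 to 5 tags coding sequence held 21.4%, and at 50 to 99 tags it held 41.7% and introns 26.3%. At 100 tags or more, 93 of 289 members were in coding sequence, 50 in introns, 47 in noncoding exons, 46 in 3′ UTRs and 39 on sequences for which no annotation was used. Among the 5099 members with at least 4 tags, a limit chosen after the data had been seen, 39.5% lay in introns and 30.3% in coding sequence.

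**Figure D2:**
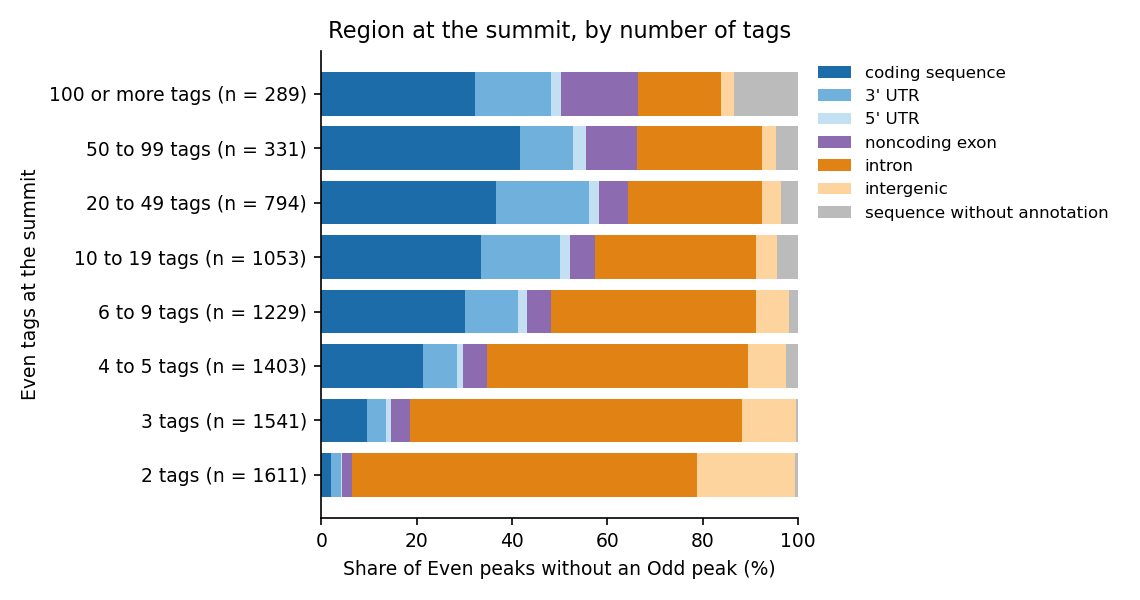
Share of Even-only peaks (x, percent) in each transcript region at the summit, by number of Even tags at the summit (y, with the number of peaks in each class). Introns and intergenic sequence fill most of the bar at 2 tags (72.3% and 20.6%), whereas coding sequence reaches 41.7% at 50 to 99 tags.

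Set against the length of each region, exons were the densest. Coding sequence held 49.5 Even-only summits per Mb, 3′ UTRs 19.2, 5′ UTRs 16.2, noncoding exons 9.31, introns 2.58 and intergenic sequence 0.602. The 2-tag members showed less of this order, with 0.974 per Mb in coding sequence, 0.706 in introns and 0.251 between genes. Intronic summits lay a median of 3.13 kb from the nearest exon, and 811 of 4251 (19.1%, 17.9 to 20.3) lay within 290 bp, the extended fragment, of one. The share within 290 bp was 12.3% for the intronic members with 2 or 3 tags and 29.2% for those with 10 or more. Fold was larger in introns than in exons among strong peaks, but on a lower pileup, which goes with a lower local control background. Of the 144 members with a fold of 100 or more, 110 were intronic (76.4%, 68.8 to 82.6) and 14 lay in coding sequence. Among the 785 best members, the median fold was 69.9 in introns on a median pileup of 75, and 15.8 in coding sequence on a median pileup of 152.

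The 10 Even-only peaks with the smallest p covered introns, coding sequence and 3′ UTRs alike. The first lay in an intron of ENTPD2, an ectonucleotidase, with 499 tags and a 112-fold enrichment. The next, at chr3:114055681-114058450, lay in the 3′ UTR of ZBTB20, a zinc finger and BTB domain transcriptional repressor, with 425 tags and a 212-fold enrichment. The third lay in the 3′ UTR of NPLOC4, a cofactor of the VCP segregase in ubiquitin-dependent degradation, at chr17:79523911-79526299, with 632 tags and a 49.7-fold enrichment. A peak in the 3′ UTR of C19orf47 had 396 tags and a 161-fold enrichment.

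The 3 best peaks in coding sequence were in CSTF3, YEATS2 and KDM4C. CSTF3, a subunit of the cleavage stimulation factor for mRNA 3′ ends, had 472 tags and a 120-fold enrichment at chr11:33106119-33107789. YEATS2, the histone-reading scaffold subunit of the ATAC acetyltransferase complex, had 458 tags and a 54.6-fold enrichment at chr3:183524413-183525158. KDM4C, a histone lysine demethylase, had 327 tags and a 133-fold enrichment at chr9:6805356-6806073.

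Intronic peaks reached the largest folds. STRN3, a regulatory subunit of protein phosphatase PP2A, had 290 tags and a 406-fold enrichment. SYT1, the calcium sensor of synaptic vesicle release, had 287 tags and a 291-fold enrichment. ARHGAP18, a GTPase-activating protein, had 233 tags and a 652-fold enrichment. ABL2, a non-receptor tyrosine kinase, had the largest fold of the list, 699 on 180 tags at chr1:179132954-179134507. The control's own reads at each site are not in the lists.

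The other folds among the 10 largest ran from 430 to 625. They lay in introns of LYRM4 (iron-sulfur cluster assembly, 625), of PSMD1 with HTR2B on the same sequence (a proteasome subunit and a serotonin receptor, 606), of TAF15 with HEATR9 (TAF15 is an RNA-binding protein of the FET family, 543), of EXOC2 (exocyst, 521), KMT2E (chromatin regulator, 517), FGD6 (474) and VCL (vinculin, 430). The exception to introns was ZMYND8, a chromatin reader, with 107 tags and a 507-fold enrichment in coding sequence. The folds of LYRM4, PSMD1, EXOC2, ZMYND8 and FGD6 equalled their scaled tags over the genome-wide background of 0.428. MACS uses that background where the control is empty nearby.

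Weaker regions had their own leading peaks. In 5′ UTRs these were TMEM184C (242 tags, 49.1-fold), SMURF2, a ubiquitin ligase (231 tags, 15.6-fold), and NOP2, a ribosomal RNA methyltransferase (141 tags, 32.0-fold). In noncoding exons all 3 best peaks lay on annotated pseudogenes, API5P1 (231 tags, 29.3-fold), AHCTF1P1 (171 tags, 26.0-fold) and PRELID1P6 (243 tags, 12.3-fold). Pseudogenes made up 254 of the 411 members in noncoding exons (61.8%) and lncRNAs 132 (32.1%). Reads from a parent mRNA and its copy can be hard to tell apart, and how multiple alignments were handled before peak calling could not be checked in the lists. Between genes, the best peak lay at chr11:57600349-57601837 with 261 tags and a 132-fold enrichment, followed by chr17:79818834-79819860 with 303 tags and a 45.1-fold enrichment, and chr10:133729905-133734153 with 138 tags and a 93.3-fold enrichment.

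The largest pileups were not the largest folds. Of the 10 highest, 5 lay on the unplaced contig GL000220 and 4 on the mitochondrial genome, and the remaining one lay between genes at chr21:9827035-9827626. The highest 6 had a pileup of 2352, or 1160 tags, which is the most that any peak reached, and folds of 1.35 or 1.36. Duplicates were limited to 2 per position in Even and 3 in the control, which bounds the pileup that a site can reach. The part of these limits in the folds at such sites was not tested. Fold under 2 was found in 145 members (1.76%), of which 45 lay in 3′ UTRs, 39 in coding sequence, 34 in noncoding exons and 5 in introns. Among the members of 100 tags or more, 74 of 289 (25.6%, 20.9 to 30.9) had a fold under 2. On the numbered chromosomes the highest pileups after chr21 were at MTCO1P12 (1770, 1.33-fold), EEF1A1P5 (1741, 1.31-fold), EEF1A1P6 (1561, 1.30-fold) and MTATP6P1 (1496, 1.47-fold), all pseudogenes of mitochondrial genes or of the elongation factor EEF1A1. NPLOC4 and PPP1CA, a catalytic subunit of protein phosphatase 1, had both a high pileup and a clear fold. PPP1CA reached a pileup of 1119 with an 11.5-fold enrichment.

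Sequences outside chromosomes 1 to 22, X and Y repeated some values. The haplotype copies of chromosome 6 held 169 members, and 135 of these shared both pileup and width with another copy, so that they formed 63 distinct pairs of values. Of the 169, 117 also had the pileup and width of a member on chromosome 6 itself. The best 2, on the mcf and qbl haplotypes, both had a pileup of 1257 and a 14.6-fold enrichment. Leaving out all sequences beyond the numbered chromosomes, X and Y left 8043 members with a median pileup of 10 and a median fold of 9.47.

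Exons of 2436 protein-coding genes were overlapped by an Even-only peak, 12.1% of the 20163 annotated. Restricted to peaks of 10 tags or more, 1133 genes remained (5.62%), and among 18702 lncRNA genes 270 had a peak in an exon (1.44%). A single peak was found in 1855 of them (76.1%), 2 in 386, 3 in 119 and 4 or more in 76. Genes with a peak were longer, with a median exonic length of 4761 bp against 3109 bp in the others, and what part length or expression had in the counts was not tested. Of the 3733 members over an exon, 284 (7.61%) touched exons of more than 1 gene and 140 (3.75%) touched exons on both strands.

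A few genes carried runs of peaks along their exons. ZBTB20 had most, with 20 Even-only peaks over exons and 6 more in introns, and no Odd peak anywhere in the gene. Its exonic peaks held 5 to 425 tags (median 15.5) with a median fold of 3.96, and 16 of the 20 summits lay in 3′ UTR, so a single site of 425 tags stood over a row of weak ones. The lncRNA ENSG00000259976 was also among the genes with most peaks, with 10, but all 10 were the same peaks, since its exon overlaps the 3′ UTR of ZBTB20 and the peaks have no strand.

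PTK2, the focal adhesion kinase, had 14 peaks over exons with 12 to 347 tags (median 30.5) and folds of 2.48 to 51.2, of which 13 summits lay in coding sequence. KDM4C had 12, with 7 to 327 tags (median 11.5) and folds of 4.73 to 195, and 10 of them lay in coding sequence. YEATS2 had 8, all in coding sequence, with 15 to 458 tags (median 115) and folds of 4.64 to 66.2. The strongest exonic peak of PTK2 had a pileup of 703, and with growing distance those before it had 204, 85, 79, 42, 36 and 26 and those after it 304, 158, 87, 30, 44, 32 and 24. Pileup was lower with each step to both sides of 1 site, apart from the rise from 30 to 44. The intronic peaks of these 3 genes held 14 tags or fewer.

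The other genes with most peaks had 6 or 7. AIFM1, the mitochondrial apoptosis-inducing factor, had 7 with up to 83 tags, and API5, a nuclear inhibitor of apoptosis, had 7 with up to 135 tags. CSNK2A2, a catalytic subunit of casein kinase, also had 7, or 3.71 per exonic kb, with up to 142 tags and a fold of up to 151. EXOC6B, of the exocyst, had 7 with up to 96 tags, and CSTF3, tied with other genes, had 6 with up to 472 tags. None of these 5 genes had an Odd peak over an exon. Counting whole genes from start to end, IL1RAPL1 had 14 members, all in introns.

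The leading SNHG5 8-mer was found in 537 of 8030 Even-only windows (6.69%, 95% Wilson interval 6.16 to 7.25), against 1.26% of the 16052 windows 5 kb away and 1.35% of the Odd windows. Since the 8-mer was chosen for this excess, its share is a description. The neighbouring 8-mers that start at positions 47 to 51 were also between 5.02% and 6.69%, with 0.822% to 1.84% in the flanks. Among the 785 best members the share rose to 20.4%, against 1.76% of their own flanks. The longest form that was searched, the 10-mer GGTGGTAGGA, was in 3.90% of Even-only windows and 0.156% of flanks. Smaller excesses were seen at other places in SNHG5, such as GAGTGTGG at position 201 (4.32% against 1.99%) and CAGTGAAG at position 218 (4.35% against 2.27%). In the study's drawing CAGTGAAG and the match at YEATS2 lie under an Even oligonucleotide and most of the matches at ABL2 and ENSG00000239462 do too, whereas GAGTGTGG and most of the match at KDM4C lie under Odd oligonucleotides.

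**Figure D3:**
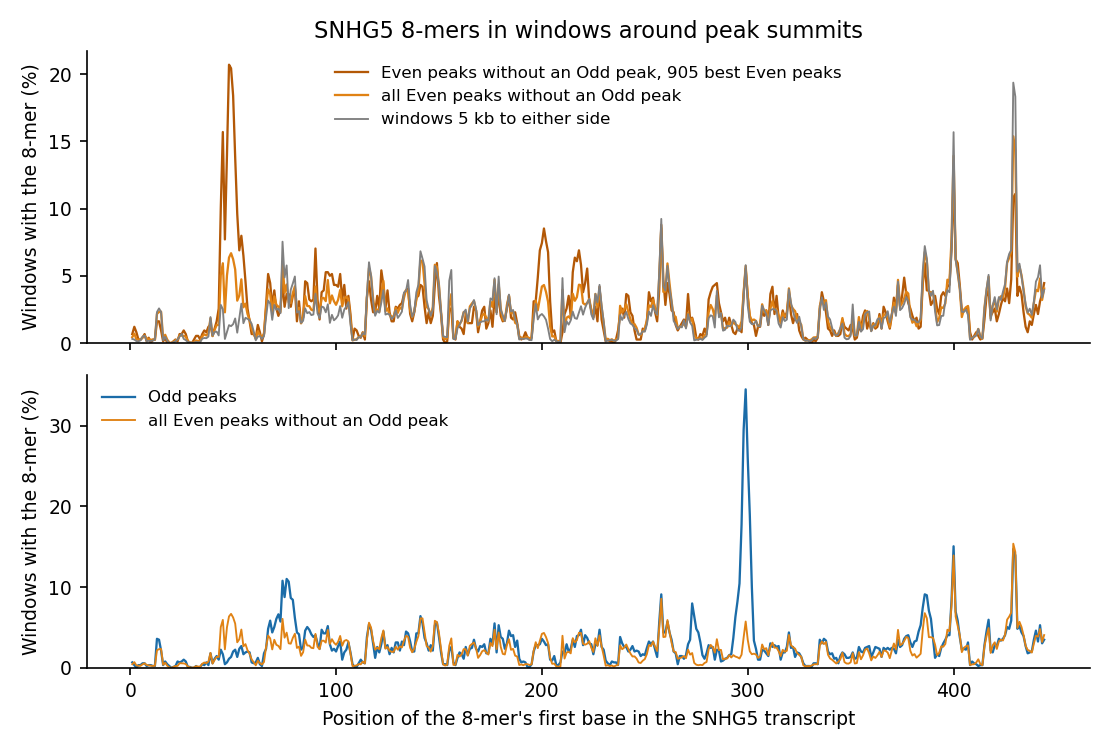
Share of summit windows (y, percent) that hold each 8-mer of SNHG5 on either strand, by position of the 8-mer in the transcript (x). In the upper panel the best Even-only peaks (dark) and all Even-only peaks (orange) rise over the windows 5 kb away (grey) at positions 47 to 51, to 20.4% and 6.69% for the leading 8-mer, and in the lower panel the Odd peaks (blue) rise to 34.5% at position 299 instead; the tall spikes at A-rich 8-mers near the 3′ end are as high in the flanks.

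The 8-mer was more common in stronger peaks and in introns. It was in 1.76% of the 2-tag windows (1.22 to 2.53), 3.79% of the 3-tag windows (2.94 to 4.87), 9.46% of those with 6 to 9 tags (7.93 to 11.2) and 14.2% of those with 20 to 49 tags (11.9 to 16.8), and then in 10.8% at 50 to 99 tags and 11.2% at 100 or more. Windows with the 8-mer had a median of 9 tags and a median width of 483 bp, and windows without it 4 tags and 290 bp. Among the best members it was in 115 of 334 intronic windows (34.4%, 29.5 to 39.7), 9 of 35 intergenic windows (25.7%, 14.2 to 42.1), 10 of 78 windows in 3′ UTRs (12.8%, 7.12% at the lower and 22.02% at the upper end of the interval) and 12 of 230 in coding sequence (5.22%, 3.01 to 8.90). SYT1, with 287 tags, was the member with the smallest p that held it. The peaks of ENTPD2, ZBTB20, NPLOC4 and CSTF3 did not hold it, and their longest runs of SNHG5 letters were 9, 12, 12 and 9 nt.

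Position within the window and orientation were not used to choose the 8-mer, whereas its presence within 250 bp of the summit was. Of its 555 occurrences in Even-only windows, 399 (71.9%, 68.0 to 75.5) lay within 100 bp of the summit. Where the summit lay in an intron of genes of 1 strand, the 8-mer was on the transcribed strand in 310 of 343 windows (90.4%, 86.8 to 93.1), against 52.5% of the windows with it in the flanks of the same peaks (42.8 to 61.9). For summits in exons it was on the transcribed strand in 77 of 97 windows (79.4%, 70.3 to 86.2), against 32 of 66 in their flanks (48.5%, 36.8 to 60.3). An RNA with the 8-mer in this orientation has the same letters as SNHG5 and can pair with an oligonucleotide antisense to SNHG5. Whether such pairing took part in the retrieval was not tested.

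Longer matches to any part of SNHG5 showed the same order. The longest run of letters shared with SNHG5 averaged 9.82 nt in Even-only windows (SD 1.42, over 8030 windows) and 10.6 nt among the best members (SD 1.86), against 9.43 and 9.39 nt in their flanks. A run of 12 nt or more was in 936 Even-only windows (11.7%), in 26.0% of those of the best members and in 3.70% of the flanks. By number of tags the share rose from 4.83% at 2 tags to 21.6% at 100 or more. Odd windows averaged 11.1 nt (SD 4.29), with 34.4% at 12 nt or more. Of the Odd peaks, 5 lay over SNHG5 exons, where a window can hold the bait's own sequence, and no Even-only peak did. The Odd list's own leading 8-mer was GAGGCCAG, at position 299 of SNHG5, in 34.5% of Odd windows. The drawing marks that stretch for the Even pool, although its oligonucleotide has an odd number in the study's list. It was in 5.74% of Even-only windows and 5.80% of their flanks, so the Even-only list had no excess of it. In the overlapped Even peaks it was in 54.7%, and GTGGTAGG in 1.11%.

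Mean GC content was 44.1% in Even-only windows (SD 9.48) and 42.8% in windows 5 kb away, and 47.4% and 44.8% for the best members. It was 59.8% at summits in 5′ UTRs, against 43.0% in their flanks, and below its flanks in 3′ UTRs, at 41.6% against 43.7%.

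The distance from Even-only peaks to the Odd list is given as a description. The median distance to the nearest Odd peak on the same sequence was 915 kb, with 44 members within 1 kb and 236 within 10 kb. The rule had already removed every Even peak that overlapped an Odd peak, and the Odd list is short. Whether members lay nearer to Odd peaks or farther from them than randomly placed positions was not tested. At the limit of the rule, the nearest members were separated from an Odd peak by 115 bp at AKAP12 (376 tags, 1.25-fold), 129 bp at LINC02641 (4 tags) and 130 bp at NEMF (5 tags). The Even peaks that just overlapped an Odd peak did so by 46 bp at ENSG00000271793 (5 tags), 55 bp at TCAF1 (12 tags) and 76 bp at RALY (5 tags).

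Sharing of a gene with the Odd list was limited to a minority of members. Counted over exons of protein-coding genes, it exceeded the share over all such genes. Of 7269 members within a gene, 787 (10.8%, 10.1 to 11.6) lay in a gene with an Odd peak anywhere from its start to its end, and of 3733 over an exon, 178 (4.77%, 4.13 to 5.50) lay in a gene with an Odd peak over an exon. These are shares of peaks, for which no matching share over all genes was computed. In genes, 121 of the 2436 protein-coding genes with an Even-only peak in an exon also had an Odd peak there (4.97%, 4.17 to 5.90), against 1.964% of all protein-coding genes. They were 30.6% of the 396 genes with an Odd peak in an exon (26.2 to 35.3), against the 12.1% of all protein-coding genes with an Even-only peak. The part of gene length and expression in this was not tested. TEAD1, a transcription factor of the Hippo pathway that was named after its values had been seen, had 3 Even-only peaks of up to 329 tags beside 1 Odd peak.

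The transcripts that the study followed up held few Even-only peaks. SNHG5 itself had none over an exon and 1 in an intron, with 4 tags, since its exonic Even peaks were overlapped by Odd peaks. PITRM1, GLE1, IRX4, CPNE1, DELE1 and GAPDH had none over an exon. SPATS2, with 13 Odd peaks over exons, had 2 Even-only ones, of 22 tags (3.19-fold, coding sequence) and 4 tags, the latter with its summit in an intron. COX15, a mitochondrial heme A biosynthesis enzyme, had the strongest member of these genes, at chr10:101489068-101489739 in coding sequence with 97 tags and a 16.4-fold enrichment, and a further one of 17 tags. WASHC3, a subunit of the WASH actin-nucleating complex, had 2 of 6 tags each with summits in introns, ZNF335 1 of 12 tags, SOCS6, a suppressor of cytokine signalling, 1 of 14 tags in its 3′ UTR, and PECR 1 of 3 tags.

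Gene lists were set beside the 12.1% of all protein-coding genes with an Even-only peak in an exon, whose best peak had a median of 8 tags and a median fold of 8.11. A peak counts here once any of its bases touches an exon, so the summit itself can lie outside, as it did at DIS3L, EXOSC10, SKIC2, EXOSC3, EP400, SETD1B and TCF7L2. Median exonic length was 5736 bp in the mRNA decay list, 5754 bp in the STAT3 list, 6190 bp in the WNT list, 5834 bp in the Notch list and 3967 bp in the apoptosis list, against 3109 bp in genes without a peak, and the part of length in the counts was not tested. In mRNA decay and the Staufen pathway, 12 of 32 genes had one (37.5%, 22.9 to 54.7), with a median of 11.5 tags and 4.72-fold. The best were DIS3L, an exoribonuclease (25 tags, 16.9-fold), EXOSC10 and EXOSC3 of the RNA exosome (8 tags at 15.1-fold, and 9 tags at 8.39-fold) and the exosome helicase SKIC2 (15 tags, 5.07-fold). The Staufen paralog STAU2 had 4 peaks of up to 18 tags, and STAU1 had none.

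Among chromatin regulators of the KMT2, SWI/SNF and CREBBP families, 10 of 29 had one (34.5%, 19.9 to 52.7), with a median of 20 tags and 6.03-fold. EP400, a chromatin-remodelling ATPase, led with 82 tags and a 95.6-fold enrichment. KMT2E (39 tags, 19.8-fold), SMARCA4 (35 tags, 3.55-fold) and SETD1B (8 tags, 8.61-fold) followed. The list's median exonic length, 8652 bp, was well above the 4761 bp of all genes with a peak.

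Structural genes of the laminin, collagen and plectin families had one in 9 of 30 (16.7% to 47.9%), with a median of 25 tags and 6.59-fold. They included AHNAK (246 tags, 6.59-fold), FLNA, an actin-crosslinking filamin (181 tags, 3.43-fold), and PLEC (153 tags, 3.34-fold). Their median exonic length was 8628 bp.

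In STAT3 and cytokine receptor signalling, 7 of 27 genes had one (25.9%, 13.2 to 44.7), with a median of 16 tags and 3.55-fold. These included the phosphatase PTPN11 (115 tags, 9.33-fold), the SUMO ligase PIAS1 (6 tags, 12.2-fold) and SOCS6, and STAT3 itself was not among them. Of apoptosis genes, 7 of 31 had one (22.6%, 11.4 to 39.8), with a median of 26 tags and 5.68-fold. BBC3, the p53 target PUMA that promotes apoptosis, had 198 tags and a 28.7-fold enrichment, BIRC5, or survivin, had 102 tags and 5.02-fold, BCL2L1, which encodes BCL-XL, had 118 tags and 2.95-fold, and the inhibitor BIRC6 had 14 tags and 5.68-fold.

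Genes of the WNT pathway and colorectal cancer had one in 8 of 38 (21.1%, 11.1 to 36.3), with a median of 14 tags and 4.01-fold. The best were TCF7L2 (41 tags, 3.96-fold), PIK3CA (6 tags, 12.2-fold), MSH6 (18 tags, 3.32-fold) and SMAD4 (8 tags, 5.95-fold). In the Notch pathway 3 of 25 had one (4.17% to 29.96%), among them RBPJ (6 tags, 12.2-fold) and MAML2 (4 tags, 18.95-fold), with a median of 6 tags and 12.2-fold.

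Zinc finger genes named ZNF had one in 63 of 516 (12.2%, 9.66 to 15.3), with a median of 8 tags and 9.47-fold, led by ZNF837 (46 tags, 218-fold), ZNF337 (65 tags, 30.3-fold), ZNF875 (73 tags, 21.2-fold) and ZNFX1 (33 tags, 33.5-fold). Genes with ribosomal protein symbols had one in 8 of 102 (7.84%, 4.03 to 14.7), with a median of 55.5 tags and 3.29-fold, but 4 of the 8 are ribosomal S6 kinases that share the prefix. The ribosomal protein genes RPS21 (100 tags, 2.11-fold) and RPSA2 (398 tags, 1.40-fold) joined high pileup to a low fold. Replication-dependent histone genes had one in 5 of 69 (7.25%, 3.13 to 15.9), with a median of 113 tags and 1.35-fold, and 4 of the 5 had 112 to 369 tags with folds of 1.20 to 1.36.

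Of the small nucleolar RNA host genes, 1 of 30 had an Even-only peak in an exon, beside 1.44% of all lncRNA genes. It was SNHG17, with 3 peaks, the best of which had 134 tags and a 2.52-fold enrichment. Abundant nuclear and housekeeping noncoding RNAs had one in 3 of 10, NEAT1 (174 tags, 7.20-fold), KCNQ1OT1 (4 tags, 10.4-fold) and OIP5-AS1 (18 tags, 2.28-fold), with a median of 18 tags and 7.20-fold. No list was tested, since genes are not replicates and there was a single library.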

How the data were processed

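RIA-seq libraries of HCT-116 cells were retrieved with ODD or EVEN oligonucleotides, and the control libraries carry the label INPUT, where the methods describe a luciferase pool. Per the study's methods and the labels, the authors used STAR for alignment to hg19 and MACS 2.0.9 for peak calling, with the pooled control as background and a limit of 0.001 on p, and passed the pooled Odd peaks, but not the Even peaks, through the IDR reproducibility step. Because an Even replicate had failed, they extrapolated the number of reproducible Even peaks from the Odd pool, with an optimal number of 905 for both. The deposited Even list, used here whole, was not cut to that number. The deposited pileup is a signal of tags extended to 290 bp in the Even list and 260 bp in the Odd list. The deposited fold is the ratio of pileup to local background, and the deposited −log10 p-value was used to rank peaks. The deposited q columns were not used, and 0 columns belonged to other samples. Depth was 55933565 tags in Even, 150214135 in Odd and 114945178 in the control.

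Even peaks with no Odd peak over 1 bp were taken with bedtools 2.31.1. Tags were recovered as pileup divided by 2.03, and all 8626 Even pileups came out whole after rounding down. Region and gene came from GENCODE 44 basic transcripts on GRCh37 chromosomes 1 to 22, X and Y, coding sequence first, then 3′ UTR, 5′ UTR, noncoding exon, intron. A gene was counted when any base of a peak touched its exon. Sequence was read with pysam 0.24.0 from GRCh37. Tables were built with pandas 2.3.3 and numpy 2.4.6 in Python 3.11.15, intervals with scipy 1.17.1 and plots with matplotlib 3.10.9. Wilson and Poisson intervals are at 95% and cover counting error only, and PCR duplicates without molecular identifiers are not independent molecules. No test was run, as 1 Even library has no replicate error. The overlap, region and match steps were tested on simulated data.

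Members and gene lists were chosen with earlier results of these data known. The genes named are SNHG5 and the transcripts the study followed, those at the 10 members with the smallest p, largest pileup or largest fold, the 10 with most peaks in exons, the 3 best per region and up to 4 per gene list. In the gene lists 2 symbols, RN7SL1 and RPPH1, had no match. Some genes that the rule names are not reported here. Genes beside a printed sequence, at the limit of the rule, MTCO1P12, EEF1A1P5, EEF1A1P6, MTATP6P1, PPP1CA, IL1RAPL1, TEAD1, STAU1, STAU2 and STAT3 were named after their values were seen. Alternatives covered the p limit, the overlap rule, the rank, the annotation, the windows and the length of the k-mer.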

Additional observations from a re-analysis of the deposited data

How the results depend on the processing

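The number of Even-only peaks, their medians of pileup, width and fold, the region shares, the gene count, the GC content and the 8-mer share were recomputed under 77 alternatives in all, 18 of which were added after the data had been seen. The overlap rule changed nothing beyond the counting interval: needing at least 50% of the Even peak to be overlapped, needing its summit in an Odd peak, or also leaving out peaks within 1 kb of an Odd peak kept 8209 to 8265 members. How much of the low tail was used decided most values. With a −log10 p of at least 5, the median pileup was 14, the median width 332 bp and the median fold 12.2, with 25.2% of summits in coding sequence, 47.0% in introns and 7.10% between genes, a mean GC of 44.5% and the 8-mer in 8.20% of windows. With at least 4 tags, an added alternative, 5099 members had a median pileup of 18, a median width of 380 bp and a median fold of 8.79, with 30.3%, 39.5% and 5.71% in these regions, a GC of 44.7% and the 8-mer in 9.19%. Within the Even peaks of smallest p, as many as the Odd list holds, 785 members had medians of 119, 694 bp and 28.5, with 29.3%, 42.8% and 4.46% in these regions, 306 protein-coding genes, 9.89% in a gene with an Odd peak, a GC of 47.4% and the 8-mer in 20.4%. Taking any overlap of the whole peak put 30.1% in coding sequence and 42.8% in introns, all GENCODE transcripts put 49.1% in introns, and chromosomes 1 to 22, X and Y alone, an added alternative, put 52.9% there. Counting exons only, 4.77% lay in a gene with an Odd peak. GC was 45.3% within 50 bp and 43.6% within 500 bp of the summit, and the 8-mer was in 2.54% of windows reaching 50 bp, with the leading 10-mer in 3.90% of those reaching 250 bp. No paired analysis was possible because there is 1 EVEN library and the lists hold no value per replicate. For the same reason no library could be left out. Depth limits the list most at 2 tags, whose exact Poisson interval is 0.242 to 7.22 tags.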
